A study of Oryctolagus cuniculus with 3 samples.

Results

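TXNIP (thioredoxin-interacting protein), the related arrestin-domain genes ARRDC1, ARRDC3 and ARRDC4, and the transcription factor genes MLX, MLXIP and MLXIPL were followed through the differentiation of rabbit corneal epithelial cells in culture. The genes were chosen by name, and every row of the deposited tables filed under such a name was summed. Of 8 genes chosen, 7 had rows among the 20536 gene names of the tables; ARRDC2 was not analysed here. The choice was made with the rise of TXNIP in these libraries already known, so the values below are a description and carry no test.

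RNA of the rabbit corneal epithelial line RCE1(5T5) was sequenced in 1 library for each of 3 stages. Cells were taken on day 4 (labelled non-differentiated), day 6 (committed) and day 10 (terminally differentiated). The labels name no genetic change or drug for any of them. The cells were grown on mitomycin C-treated 3T3 mouse fibroblasts, which were detached with EDTA before RNA extraction. The medium held serum, insulin, transferrin, hydrocortisone, triiodothyronine, cholera toxin, adenine and EGF throughout. With 1 library per stage, stage, day and library cannot be told apart, and no difference has a replicate check.

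The alpha-arrestins are adaptor proteins with an arrestin fold. Most carry short motifs that bind ubiquitin ligases of the NEDD4 family, and through these they steer receptors and transporters from the cell surface into the cell. TXNIP also binds thioredoxin, the small protein that reduces disulphides, and it promotes the uptake of glucose transporters from the membrane. TXNIP and ARRDC4 are textbook targets of the glucose-responsive factors MondoA (encoded by MLXIP) and ChREBP (encoded by MLXIPL), each of which binds DNA together with its partner MLX.

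The libraries held 10171693, 12582706 and 10899578 fragments on days 4, 6 and 10. Levels across stages are given as CPM, counts per 1000000 fragments after scaling by trimmed mean of M values (TMM). Brackets are 95% intervals that cover counting error only. Comparisons over all genes used the 12818 genes with 1 CPM or more in their highest library, called measured here. "Rose" and "fell" are used of differences in log2(CPM + 1) of 1 or more, a 2-fold change on a scale that understates the change of low genes. Of 12 corneal epithelial markers 11 had fragments on day 4, where the corneal keratin KRT12 was at 0, and 12 on days 6 and 10. They summed to 18381, 28870 and 20012 CPM, and 7 of the 12 rose between days 4 and 6. KRT5 made up most of each sum, with 15650, 23374 and 13552 CPM. Between days 6 and 10, 5 of the 12 rose and 0 fell. The 15 fibroblast markers summed to 5014, 3183 and 1730 CPM on days 4, 6 and 10, with LUM at 0 in all 3 libraries. THY1 of that list went the other way, with 19.6, 16.8 and 76.9 CPM. Of 5 immune cell markers TYROBP, FCER1G and CD3E were at 0 on every day, and the list summed to 7.07, 26.9 and 69.5 CPM on days 4, 6 and 10. Nearly all of it was CD68, a gene of macrophages and lysosomes, with 5.6, 25 and 68 CPM, which rose at both steps as TXNIP did. The part of other cells in the differences below was not tested. In such bulk RNA, fewer cells of a type and less RNA per cell cannot be told apart.

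TXNIP rose at both steps. Its 290.0, 2022 and 4188 fragments on days 4, 6 and 10 correspond to 26.6 CPM [23.6 to 29.9], 168 CPM [160.5 to 175] and 394 CPM [383 to 407]. The 3 intervals lie far apart, with the lowest level in non-differentiated and the highest in terminally differentiated cells. The rise was 6.3-fold [5.57 to 7.15] between days 4 and 6 and 2.35-fold [2.23 to 2.48] between days 6 and 10. Over the whole interval TXNIP was 14.8-fold higher [13.2 to 16.8]. By TPM, the length-scaled unit deposited by the authors, it moved from position 4900 among all genes on day 4 to position 1062 on day 6 and 491 on day 10. Few measured genes rose more: 0.507% did so between days 4 and 6, 5.26% between days 6 and 10, and 0.757% between days 4 and 10. TXNIP was 1 of 211 measured genes, or 1.65%, that rose at least 2-fold at each step.

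**Figure D1:**
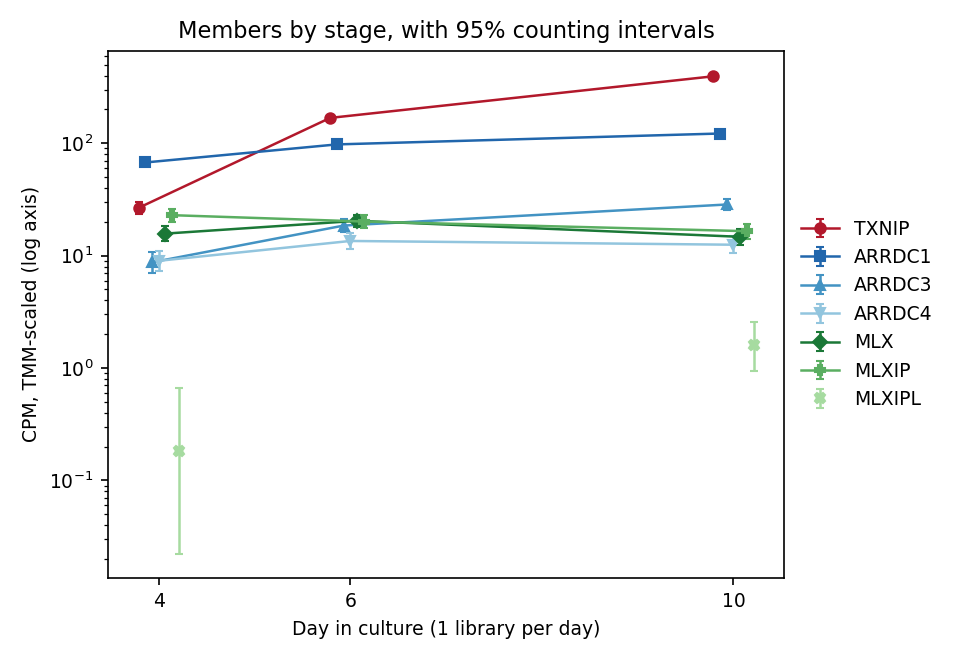
CPM of the 7 genes (log axis) by day in culture, 1 library per day; bars are 95% Poisson counting intervals, and a point at 0 fragments (MLXIPL on day 6) is left out. TXNIP goes from 26.6 to 394 CPM and passes ARRDC1, while ARRDC4, MLX and MLXIP stay between 8.99 and 22.9 CPM.

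Of the 7 genes, 2 rose and 0 fell between days 4 and 6, where 8.06% of the 12818 measured genes rose and 6.73% fell. The pair was TXNIP and ARRDC3. Between days 6 and 10, 2 rose and 0 fell (TXNIP and MLXIPL), against 8.25% and 7.1% of all genes. Over the whole interval 3 rose and 0 fell (TXNIP, ARRDC3 and MLXIPL), against 17.1% and 15.8%. All 7 were measured, but MLXIPL reached 1 CPM on day 10 alone, and so had to be higher on that day than on the others. The MLXIPL calls rest on 17 fragments and were lost with a pseudocount of 5. Counts this small say little of the group as a whole. The genes did not move as 1 block: the fold of TXNIP over the whole interval was 4.53 times that of ARRDC3, 8.21 times that of ARRDC1 and 10.6 times that of ARRDC4.

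ARRDC3, an adaptor for the internalisation of beta-adrenergic receptors, shared the upward direction of TXNIP at each step, as did ARRDC1 with smaller ratios. Its 95, 223 and 303 fragments on days 4, 6 and 10 correspond to 8.72 [7.05 to 10.7], 18.5 [16.1 to 21.1] and 28.5 [25.4 to 31.9] CPM. Each stage lay above the one before it, and the intervals did not overlap. It was 2.12-fold higher [1.66 to 2.73] on day 6 than on day 4 and 1.54-fold higher [1.29 to 1.84] on day 10 than on day 6. The first of these stood at the line, with a log2 difference of 1.00, and was no longer counted as a rise under 6 of the 9 other settings tried, 1 of which was a stricter threshold. From day 4 to day 10 it rose 3.27-fold [2.59 to 4.17].

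The fragments of ARRDC3 are split in the tables between a pair of coding sequences, with lengths of 1244 and 1008 bases implied by the read and transcript columns. The longer took 55.3%, 55.2% and 56.8% of the gene's fragments on days 4, 6 and 10. That share moved little while the gene rose, and fractional counts show that shared reads were divided between the forms.

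ARRDC1, which recruits the budding machinery of the plasma membrane and gives rise to small vesicles, had 734, 1177 and 1291 fragments. Its levels were 67.4 [62.6 to 72.4], 97.6 [92.1 to 103] and 122 [115 to 128] CPM, in the order of the days and without overlap. The ratio was 1.45 [1.32 to 1.59] between days 4 and 6, 1.25 [1.15 to 1.35] between days 6 and 10, and 1.81 [1.65 to 1.98] from day 4 to day 10, so it stayed under the 2-fold line at every step. Its difference between days 4 and 6 also leaned on the scaling: 0.53 on the log2 scale with TMM, 0.37 without it and 0.14 with TPM.

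ARRDC4, known like TXNIP as a glucose-induced gene, stayed under the 2-fold line at both steps. Its 98, 163 and 133 fragments on days 4, 6 and 10 correspond to 8.99 [7.3 to 11], 13.5 [11.5 to 15.8] and 12.5 [10.5 to 14.8] CPM. Day 4 was the lowest and lay clear of day 6, while the interval of day 10 overlapped those of both other days. The ratio was 1.5 [1.16 to 1.95] between days 4 and 6 and 0.927 [0.731 to 1.17] between days 6 and 10. At day 10 against day 4 it was 1.39 [1.06 to 1.83], where TXNIP stood at 14.8.

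**Figure D2:**
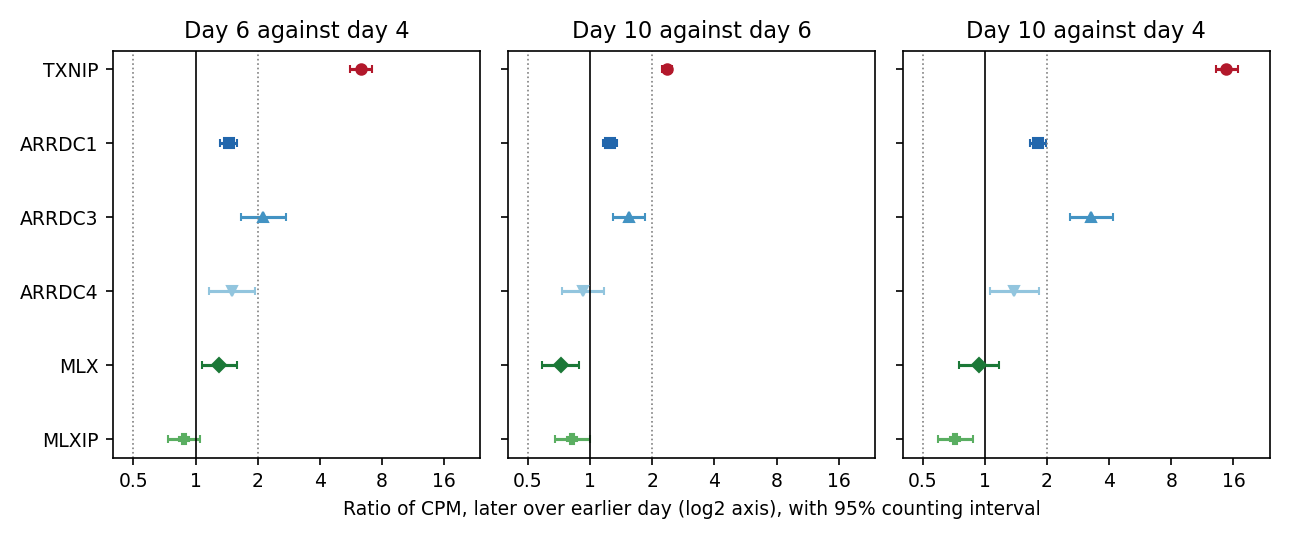
Ratio of CPM, later over earlier day (log2 axis), for 6 genes in the 3 comparisons, with 95% Clopper-Pearson counting intervals; dotted lines mark 2-fold and MLXIPL is left out for its low counts. TXNIP lies apart from the others in each panel, at 6.3, 2.35 and 14.8, and MLX and MLXIP lie near 1.

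Of the factors that act on the TXNIP promoter elsewhere, MLX and MLXIP stayed under 2-fold in all 3 comparisons. MLX, the common partner, had 171, 246 and 156 fragments, or 15.7 [13.4 to 18.2], 20.4 [17.9 to 23.1] and 14.7 [12.5 to 17.2] CPM. It was highest on day 6, whose interval overlapped that of day 4 but not that of day 10, and days 4 and 10 overlapped. The ratio was 1.3 [1.07 to 1.59] at the first step, 0.72 [0.585 to 0.884] at the second and 0.936 [0.749 to 1.17] from day 4 to day 10. The first of these was near even on the TPM scale, where the log2 difference was 0.03 in place of 0.36. Its pair of coding sequences shared the fragments almost evenly, the longer with 50.6% on days 4 and 6.

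MLXIP, the gene of MondoA, had 249, 242 and 175 fragments, or 22.9 [20.1 to 25.9], 20.1 [17.6 to 22.8] and 16.5 [14.1 to 19.1] CPM. Neighbouring days overlapped, and day 10 lay below day 4 at a ratio of 0.721 [0.591 to 0.879]. It thus ran opposite to TXNIP in sign, though short of a 2-fold fall. MLXIPL, the gene of ChREBP and best known from liver and fat, was close to the limit of detection. Its 2, 0 and 17 fragments on days 4, 6 and 10 correspond to 0.184 [0.0222 to 0.663], 0 and 1.6 [0.933 to 2.56] CPM. The Poisson interval of the 0 on day 6 reaches 0.306 CPM. Folds against a 0 were computed from a floor of 3 fragments, here 0.249 CPM, against which the 1.6 CPM of day 10 was 6.44-fold higher. The counting interval of 17 fragments against 0, which uses no floor and takes in the error of both counts, starts at 4.69. Against day 4 the ratio was 8.72 [2.07 to 77.8]. The log2 differences moved with the pseudocount. At day 10 against day 6 the value was 1.38 with 1 CPM added, 0.40 with 5 and 4.09 with 0.1. At day 10 against day 4 it was 1.14, 0.35 and 2.58, so that both calls were lost with 5.

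Levels of different genes can be compared only per length, for which the authors' TPM was used. On day 4 ARRDC1 led with 57.6 TPM, followed by TXNIP with 21.3 and MLX with 13. ARRDC4 at 8.3, MLXIP at 7.9 and ARRDC3 at 7.3 TPM were not separated by counting error: MLXIP stood at 0.952 [0.751 to 1.22] and ARRDC3 at 0.88 [0.656 to 1.18] of ARRDC4. On day 6 the order was led by TXNIP with 110.5 TPM, ahead of ARRDC1 with 63.7, MLX with 13.3, ARRDC3 with 12.4, ARRDC4 with 9.9 and MLXIP with 5.4. There MLX and ARRDC3 could not be told apart, at a ratio of ARRDC3 to MLX of 0.932 [0.774 to 1.12].

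On day 10 TXNIP was at 252.8 TPM, ARRDC1 at 76.6, ARRDC3 at 19.5, MLX at 9.8, ARRDC4 at 9 and MLXIP at 4.5. MLX and ARRDC4 were then alike within counting error, at 1.09 [0.858 to 1.38]. MLXIPL came last on each day with 0.1, 0 and 0.5 TPM. The lead thus passed from ARRDC1 to TXNIP between days 4 and 6: the ratio of TXNIP to ARRDC1 went from 0.37 [0.322 to 0.424] to 1.73 [1.61 to 1.87] and then 3.3 [3.1 to 3.52]. TXNIP made up 18.4%, 51.3% and 67.8% of the summed TPM of the 7 genes on days 4, 6 and 10. The ratio of ARRDC3 to ARRDC4 also turned, from 0.88 on day 4 to 2.17 [1.76 to 2.68] on day 10.

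**Figure D3:**
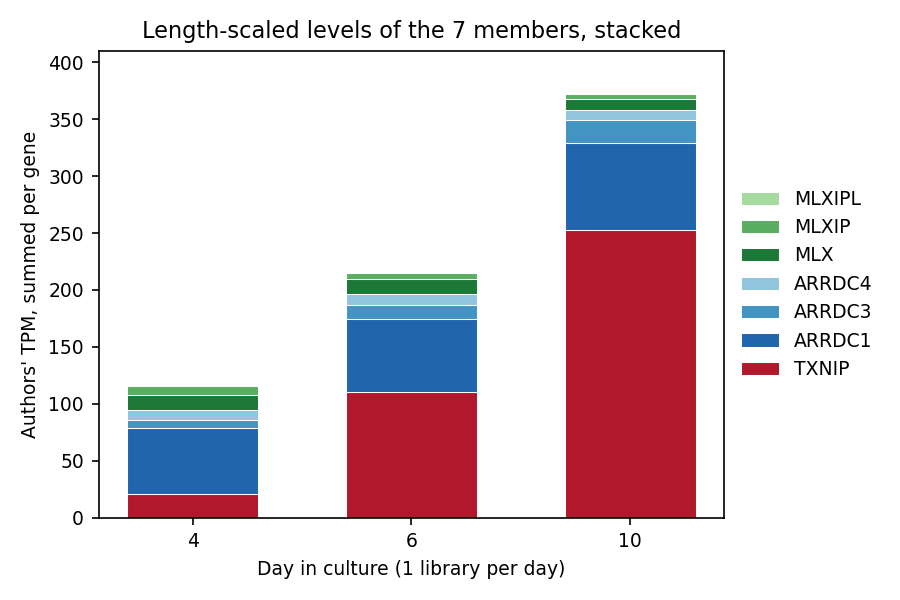
Authors' TPM of the 7 genes, stacked, by day in culture with 1 library per day and no error bars. The TXNIP part grows from 21.3 to 252.8 TPM, 18.4% to 67.8% of the stack, and ARRDC1 goes from 57.6 to 76.6 TPM.

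Genes with steps most like those of TXNIP were sought among 3651 other named genes with at least 50 CPM in their highest library. Likeness was the distance between the log2(CPM + 1) differences at the 2 steps, over 3 libraries. The 6 nearest were KRT3, TSPAN1, GSTM2, YPEL1, IGFBP2 and CA12, at distances of 0.16 to 0.44, where the median gene lay at 3.04. KRT3, a keratin of differentiated corneal epithelium, was at 149.6, 954 and 2018 CPM, with steps of 2.66 and 1.08 where TXNIP had 2.61 and 1.23. TSPAN1, a membrane tetraspanin, went from 14.3 to 82.8 and 191 CPM. GSTM2, a glutathione transferase, went from 15.8 to 82.9 and 175 CPM. With 3 points a pattern has only 2 steps, so many genes can share it.

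**Figure D4:**
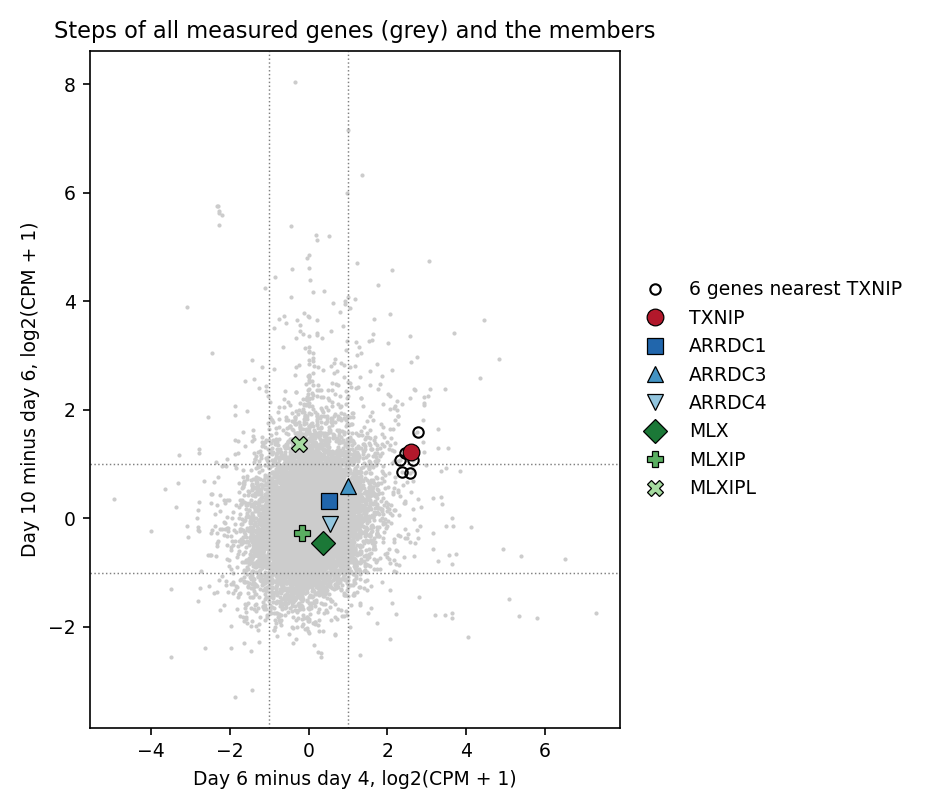
Difference of log2(CPM + 1) between days 4 and 6 (horizontal) and days 6 and 10 (vertical) for 12818 measured genes (grey), the 7 genes chosen by name (coloured) and the 6 nearest to TXNIP (open circles); dotted lines mark 2-fold. TXNIP lies in the upper right at 2.61 and 1.23, away from ARRDC4, MLX and MLXIP near the centre.

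MLX also pairs with repressors of the MAX network, so the 10 genes of that network were read beside it. Of 9 measured, 4 rose and 0 fell between days 4 and 6, 1 rose and 0 fell between days 6 and 10, and 5 rose and 1 fell from day 4 to day 10. The median log2 differences were 0.50, 0.01 and 1.42, where that of all genes was between -0.01 and 0.01. The rises made up 44.4%, 11.1% and 55.6% of the list, against 8.06%, 8.25% and 17.1% of all measured genes. MXD1, a repressor that pairs with MAX or MLX, went from 4.04 to 6.14 and 32.2 CPM, a rise of 7.98-fold [5.82 to 11.2]. MXI1, a related repressor, rose 4.83-fold [3.8 to 6.18]. MXD4, which also binds MLX and is named here after its values were seen, went from 18.1 to 49.7 and 50.2 CPM. MNT, another partner of MLX named in the same way, stayed at 8.81, 8.38 and 7.35 CPM. The activator MYC went from 90.2 to 47.3 and 26.4 CPM, a ratio of 0.292 [0.255 to 0.334] and the single fall. MYCL, a relative of MYC named after its values were seen, went the other way, from 3.12 to 11.2 and 15.2 CPM. From day 4 to day 10 MYCL rose 4.86-fold [3.34 to 7.26]. MAX, the hub of the network, was at 43.5, 37.1 and 31.8 CPM. Per length MAX stood above MLX in each library, at 6.52, 4.39 and 4.96 times its TPM.

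Other genes known as targets of the MLX factors code mainly for enzymes of sugar and fat metabolism. Of 14 measured, 0 rose and 0 fell between days 4 and 6, 2 rose and 2 fell between days 6 and 10, and 2 rose and 2 fell from day 4 to day 10. The medians were 0.13, -0.44 and -0.40. The 14.3% that rose and 14.3% that fell from day 4 to day 10 were near the 17.1% and 15.8% of all genes. Between days 4 and 6 the shares were 0% and 0%, against 8.06% and 6.73% of all genes. Between days 6 and 10 they were 14.3% and 14.3%, against 8.25% and 7.1%. The examples were chosen after their values were seen. PFKFB3, which makes the activator of phosphofructokinase, rose 3.49-fold [3.27 to 3.74] from day 4 to day 10, and ME1, a malic enzyme that makes NADPH, 2.58-fold [2.12 to 3.14]. The lipogenic enzymes ACLY and ELOVL6 fell to 0.475 [0.448 to 0.504] and 0.281 [0.222 to 0.353] of their day 4 CPM. PKLR, the pyruvate kinase gene named for liver and red cells, was at 199, 268 and 237 CPM.

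Of 11 measured genes of glucose uptake and phosphorylation, 4 rose and 0 fell between days 4 and 6, 1 rose and 0 fell between days 6 and 10, and 5 rose and 1 fell from day 4 to day 10. The medians were 0.61, 0.28 and 0.88. The rises made up 36.4%, 9.09% and 45.5% of the list, against 8.06%, 8.25% and 17.1% of all genes, so the second step was near the background. The single rise of that step was SLC2A13, named after its values were seen, with 2, 4 and 25 fragments. SLC2A12 and SLC2A13 were below 1 CPM on day 4 and counted as measured only through later days. Both had to be higher there, so their rises add little to these shares. SLC2A1, the main glucose transporter of barrier epithelia and a known cargo of TXNIP, is named here after its values were seen. It went from 481 to 1151 and 1527 CPM, 3.17-fold higher [3.07 to 3.27] on day 10. Its relative SLC2A4, also among the rises and named in the same way, was at 58.2, 141 and 171 CPM. The log2 steps of SLC2A4 were 1.26 and 0.28, where SLC2A1 had 1.26 and 0.41. Whether reads were shared between related genes was not tested. GPI, which isomerises glucose 6-phosphate, rose 4.36-fold [4.22 to 4.5]. SLC2A12, a minor transporter, went from 1 fragment to 20 and 33. ADPGK, an ADP-dependent glucokinase, fell to 0.322 [0.253 to 0.408] of its day 4 CPM. The hexokinases HK1 (named after its values were seen) and HK2 stood at 184 and 144 CPM on day 4 against 169.8 and 121 CPM by day 10. HK2 is also in the list of MLX targets.

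The thioredoxin and peroxiredoxin genes reduce disulphides and peroxides, and none of them rose 2-fold beside TXNIP. Of 18 measured, 0 rose and 1 fell between days 4 and 6, 0 rose and 2 fell between days 6 and 10, and 0 rose and 4 fell from day 4 to day 10. The medians were -0.01, -0.52 and -0.66. The rises made up 0% of the list in each comparison, against 8.06%, 8.25% and 17.1% of all genes. With 18 genes, such shares amount to few genes, so the lack of rises says little. The falls made up 5.56%, 11.1% and 22.2% of the list, not far from the 6.73%, 7.1% and 15.8% of all genes. TXN, the cytosolic thioredoxin that TXNIP binds, had the highest difference of the list, with 912, 1215 and 1675 CPM, a ratio of 1.84 [1.79 to 1.88]. NXN, a thioredoxin relative, stood at 1.24 [1.15 to 1.35]. TXNRD1, the cytosolic reductase that keeps thioredoxin reduced, dropped at the first step from 170.3 to 33.3 CPM and was at 27.4 CPM on day 10, a ratio of 0.161 [0.142 to 0.182]. TXNRD3 fell to 0.219 [0.181 to 0.262]. The other falls, SRXN1 and PRDX3, named after their values were seen, went to 0.316 [0.247 to 0.402] and 0.455 [0.42 to 0.493]. Per length, TXN outweighed TXNIP 120.2-fold on day 4, 24.2-fold on day 6 and 14.1-fold on day 10. Their levels thus drew closer as TXNIP rose, with TXN still the higher in each library.

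Among 14 measured ubiquitin ligases and sorting partners of arrestins, 0 rose and 4 fell between days 4 and 6, 3 rose and 0 fell between days 6 and 10, and 3 rose and 2 fell from day 4 to day 10. The medians were -0.15, 0.54 and 0.06. The falls of the first step made up 28.6% of the list, against 6.73% of all genes, and the rises of the second 21.4%, against 8.25%. From day 4 to day 10, 21.4% rose and 14.3% fell, near the 17.1% and 15.8% of all genes. WWP1, a ligase that binds ARRDC proteins, rose from 33.6 to 54.5 and 115 CPM, 3.41-fold [3.03 to 3.84]. ITCH, a ligase that marks TXNIP for degradation, was at 82.8, 72.9 and 171 CPM, 2.06-fold higher [1.9 to 2.24] on day 10. NEDD4, the founding ligase of the family, went from 133 to 50.6 and 31.4 CPM, a fall to 0.236 [0.209 to 0.266]. SMURF2 fell to 0.413 [0.361 to 0.471]. TSG101, the sorting protein that ARRDC1 recruits to the membrane and named after its values were seen, was at 94.2, 124 and 179.9 CPM.

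Of 7 other measured genes with an arrestin fold, 0 rose and 0 fell between days 4 and 6, 1 rose and 0 fell between days 6 and 10, and 0 rose and 1 fell from day 4 to day 10. The medians were -0.25, -0.18 and 0.08. With 7 genes, a single call is 14.3% of the list, and the background was 8.25% of genes rising at the second step and 15.8% falling from day 4 to day 10. ARRB1, a beta-arrestin that turns off G protein-coupled receptors, was at 18.7, 35.6 and 38.1 CPM. Its CPM ratio from day 4 to day 10 was 2.04 [1.72 to 2.42]. The difference in log2(CPM + 1) was 0.99, just under the line for a rise. ARRB2, the other beta-arrestin and named after its values were seen, was at 19.5, 16.3 and 11.5 CPM. VPS26B, a retromer subunit, fell to 0.489 [0.43 to 0.556], and RGP1 stood at 0.557 [0.448 to 0.69]. SAG, the rod arrestin, had 8, 12 and 14 fragments.

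Hydrocortisone was in the medium at every stage, and TXNIP and ARRDC3 are known glucocorticoid-responsive genes, so a list of such genes was read as well. Of 10 measured, 3 rose and 0 fell between days 4 and 6, 2 rose and 0 fell between days 6 and 10, and 4 rose and 0 fell from day 4 to day 10. The medians were 0.74, 0.59 and 0.92. The rises made up 30.0%, 20.0% and 40.0% of the list, against 8.06%, 8.25% and 17.1% of all genes. TSC22D3, which encodes the glucocorticoid-induced leucine zipper, went from 13.1 to 44.5 and 59.2 CPM and ZBTB16, a zinc finger repressor, from 0.826 to 9.29 and 15.4 CPM. ZBTB16 reached 1 CPM only on the later days, and so had to be higher there. The receptor NR3C1 was at 12.5, 23 and 29.4 CPM. Others were lower on day 6 than on day 4: the phosphatase gene DUSP1 at a ratio of 0.496 [0.407 to 0.602], the clock gene PER1 at 0.706 [0.62 to 0.804] and ERRFI1, an inhibitor of EGF receptors, at 0.673 [0.522 to 0.867]. DUSP1 and PER1 were the 2 that rose between days 6 and 10, 3.74-fold [3.13 to 4.49] and 2.15-fold [1.91 to 2.43]. Both stood above day 4 on day 10, at ratios of 1.86 [1.61 to 2.15] and 1.52 [1.36 to 1.7]. The genes of this list were named after their values were seen.

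**Figure D5:**
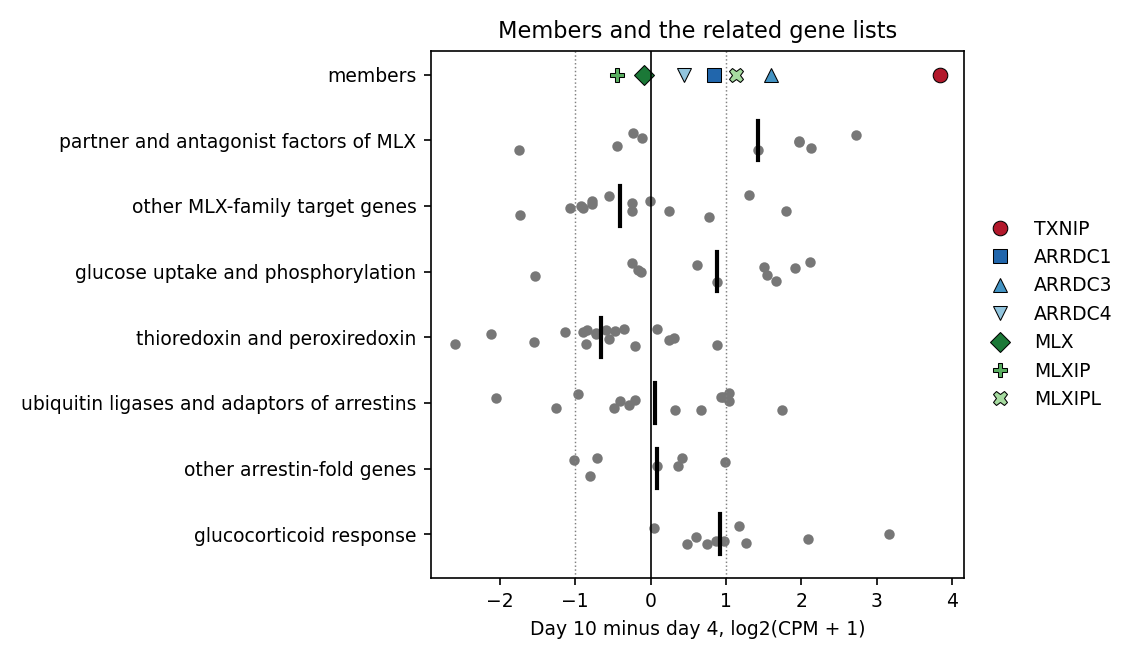
Difference of log2(CPM + 1) between day 10 and day 4 for the 7 genes chosen by name (top row) and the measured genes of 7 related lists (grey points, black bar the median); dotted lines mark 2-fold. TXNIP at 3.84 lies to the right of every listed gene, and the thioredoxin list has its median at -0.66.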

How the data were processed

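RNA sequencing of 3 libraries, 1 per stage, was used. Fragment and read columns are estimated counts per coding sequence, per the file headers and their fractional values. The raw transcript count is a coverage signal deposited by the authors, equal to reads times 75 over the length of the coding sequence. The authors' deposited FPKM, RPKM and TPM are scaled for length and depth; FPKM and RPKM were not used in any comparison. The submitters' processing notes name the build OryCun2.0. Aligner, counter and strand setting: not given in the sources used here. Reads of overlapping or antisense genes could therefore be mixed.

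Fragments were summed over the 38696 coding sequences by gene name, rounded, and scaled to CPM with TMM factors of 1.071, 0.958 and 0.974 (edgeR 4.0.16, R 4.3.3). Ratios are of CPM, with exact Clopper-Pearson intervals at 95%; levels have exact Poisson intervals. Fragments are not independent molecules after PCR. A library without a fragment was set to a floor of 3 fragments. The calculation was tested on simulated data. No test was run, because 1 library per stage allows none.

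The genes and lists were chosen with earlier results of these data known. Named are the 7 genes, the 2 highest and 2 lowest measured genes of 5 related lists by the day 10 against day 4 difference, the 6 nearest to TXNIP, and others marked as chosen after their values were seen. A further 2 genes were taken out of the lists and are not reported here; list genes without a row in the tables were not analysed here. Lists of MLX targets, glucocorticoid response and markers were described by counts. The 9 alternative settings changed normalization, pseudocount, minimum level, unit, gene summary or threshold.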

Additional observations from a re-analysis of the deposited data

How the results depend on the processing

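TXNIP kept its direction in all 3 comparisons under the 8 other settings that give it a value, and its call at 2-fold. Settings that only change the minimum CPM cannot alter its value, and a change of pseudocount cannot turn the direction of TXNIP. Its log2 difference was 2.61 at day 6 against day 4 and 2.32 with TPM; at day 10 against day 4 it was 3.84, 3.66 with a pseudocount of 5 and 3.51 with TPM. At day 6 against day 4 the number of the 7 genes that rose went from 2 to 1 (TXNIP alone) without TMM, with median-of-ratios factors, a pseudocount of 5, TPM, the highest coding sequence of each gene and a 4-fold threshold; with a pseudocount of 0.1, 1 gene fell (MLXIPL) in place of 0. At day 10 against day 6 it went from 2 to 1 (TXNIP) with a pseudocount of 5, a minimum of 5 CPM and TPM, and to 0 at 4-fold. At day 10 against day 4 it went from 3 to 2, losing MLXIPL, with a pseudocount of 5, a minimum of 5 CPM and TPM, and to 1 (TXNIP) at 4-fold. Of 138 alternative values of the other 6 genes, 121 stayed within the counting interval, 17 moved beyond it and 0 changed sign. The 121 include all values from the settings that only change the minimum CPM, which cannot alter a difference. A change of pseudocount cannot alter a sign.

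Over all genes, day 6 against day 4 had 1033 rises and 863 falls; these became 472 and 451 with a pseudocount of 5, 558 and 1628 with TPM, and 151 and 86 at 4-fold. Rises made up 54.5% of the changed genes there, 39.3% without TMM and 25.5% with TPM, with the median gene at -0.14 and -0.30. Day 10 against day 6 had 1058 and 910, which became 562 and 452 with a pseudocount of 5 and 215 and 32 at 4-fold. Day 10 against day 4 had 2190 and 2024, which became 1324 and 1319 with a pseudocount of 5 and 603 and 396 at 4-fold; with TPM 1383 rose, and rises made up 32% in place of 52%, with the median of all genes at -0.31 (-0.11 without TMM). The cause of these shifts was not tested. Depth limits MLXIPL most, with 17 fragments or fewer. No paired analysis was possible because each stage has 1 library.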
